A study of Mus musculus with 12 samples.

Results

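The genes described here encode the pore-forming subunits of the voltage-gated calcium channels other than the P/Q type: Cacna1c and Cacna1d (L type), Cacna1b (N type), Cacna1e (R type), and Cacna1g, Cacna1h and Cacna1i (T type). Members were all probe sets that the array annotation gives to 1 of these 7 genes alone, which gave 13 of the 45101 probe sets of the array, from 6 of the 18194 genes named by it. The annotation used here lists no probe set for Cacna1i, which was not analysed here. Cacna1b had 4 probe sets, Cacna1g 1 and each of the other 4 genes 2. The dimmest 40% of probe sets by mean level (a log2 mean under 1.58) were not tested, and 9 of the 13 member probe sets passed this filter: all 4 of Cacna1b, both of Cacna1c, and 1 each of Cacna1d, Cacna1e and Cacna1g. Neither Cacna1h probe set passed.

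The arrays measured cerebellar RNA of 6-week-old mice on a C57BL/6 background, with 3 arrays in each of 4 groups. These were MPI 118Q/118Q knockin mice and their wild type littermates, and MPI 11Q/11Q knockin mice and their wild type littermates. Both knockin lines model spinocerebellar ataxia type 6 (Sca6 in the labels) at Cacna1a, the gene of the P/Q-type pore subunit: 118Q stands for an expanded polyglutamine stretch in its product and 11Q for one within the normal range. The labels name 3 mice in each group and no pooling, batch or sex, and the p-values measure the spread between these mice.

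A pore subunit forms the whole ion pathway of its channel and sets the voltage at which it opens. L, N, P/Q and R channels need strong depolarisation, and auxiliary alpha2delta and beta subunits bring them to the membrane and tune them; N and P/Q channels trigger transmitter release, while L channels couple activity to gene expression. T channels open close to the resting potential and give low-threshold calcium spikes and rebound firing. Purkinje cells, the output neurons of the cerebellar cortex, carry mainly P/Q current and also express the T-type gene Cacna1g strongly.

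The arrays carried the defining genes of cerebellum: log2 means over the 12 arrays were 10.5 for Gabra6 and Neurod1 of granule cells and 10.5 for Pcp2 and 10.6 for Calb1 of Purkinje cells. Measures of RNA and of array controls differed between the groups. The mean signal of the bacterial phe control probe sets was 3.91 to 4.26 in 118Q knockin arrays and 3.18 to 3.74 in their littermates. In the 11Q line it was 1.38 to 2.3 in knockin arrays and 2.12 to 3.27 in littermates. The part of this signal in the differences between lines was not tested. The 18S ribosomal RNA signal was 8.56 to 9.23 in 118Q knockin arrays and 9.66 to 10.3 in their littermates, and 10.1 to 10.4 in 11Q knockin arrays and 10.2 to 10.5 in theirs. A rank correlation (Spearman) over 12612 genes, taken in each array, related genomic span to how far a gene lay from its own mean. It was -0.333 to -0.246 in 118Q knockin arrays and -0.0439 to 0.16 in arrays of their littermates. In the 11Q line it was 0.108 to 0.196 in knockin arrays and 0.142 to 0.23 in arrays of their littermates. Ttr, the choroid plexus transcript, ranged from 8.66 to 11.8 in 118Q knockins and 6.25 to 11.9 in their littermates, and from 5.26 to 11.8 in 11Q knockins against 11.9 in all of theirs.

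Cacna1g, the T-type gene of Purkinje cells and of neurons in the deep nuclei, had the largest difference of the 9 probe sets between the 118Q knockin and its littermates, and that difference did not pass the test. Its probe set 1423365_at read 6.33, 5.88 and 5.80 in 118Q knockins, against 6.63, 6.62 and 6.49 in their wild type littermates. All 3 knockin arrays lay below all 3 littermate arrays, and the mean was 6.00 ± 0.29 in 118Q knockins and 6.58 ± 0.08 in littermates (SD, n = 3 each). The log2 difference was -0.58 ± 0.17 (SE), 1.49-fold lower, with a 95% interval of -0.95 to -0.21, and did not pass an adjusted p of 0.05 by limma over all 27060 probe sets tested (adjusted p = 0.0985; unadjusted p = 0.00471). In this comparison 2.25% of all probe sets were called, 1.78% lower, and none of the 9 members; 8.74% of all probe sets were lower at an unadjusted p below 0.05, against 1 of the 9. The array that differed most within the knockin group was replicate 1: without it the difference was -0.74 and passed (adjusted p = 0.0277). Without wild type replicate 3 of the 11Q line, which enters only through the shared spread, the adjusted p was 0.0465. Cacna1g passed in only these 2 of the 12 fits that left out 1 array. Without knockin replicate 2 or 3 of the 118Q line the difference was -0.52 or -0.48 (adjusted p = 0.278 and 0.318). Without 1 of their littermate arrays the adjusted p was 0.17 to 0.202.

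In the 11Q line Cacna1g read 6.84, 6.86 and 6.81 in knockins, against 6.85, 6.75 and 6.25 in wild type littermates. These groups overlapped, and the difference of 0.22 ± 0.17 did not pass (adjusted p = 0.978). The order of the group means was therefore 11Q knockin (6.84), 11Q line wild type (6.62), 118Q line wild type (6.58) and 118Q knockin (6.00), and no neighbours in it differed past the threshold. The knockin effect of the 118Q line minus that of the 11Q line was -0.80 ± 0.24 (interval -1.32 to -0.28) and did not pass either (adjusted p = 0.245). Here 0.0961% of all probe sets were called and none of the members; 8 of the 9 lay below 0, against 42.8% of all probe sets.

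The direct comparison of both knockins did pass for Cacna1g. The 118Q knockin was 1.79-fold lower than the 11Q knockin, by -0.84 ± 0.17 on the log2 scale (interval -1.20 to -0.47; adjusted p = 0.00826), with no overlap between 5.80 to 6.33 in 118Q knockins and 6.81 to 6.86 in 11Q knockins. The wild types of the same lines differed by -0.04 ± 0.17 (118Q line minus 11Q line). This comparison also called 13.6% of all probe sets, 6.47% lower, and 2 of the 9 members, both lower. The knockin arrays of the 118Q line enter both this comparison and the one with their littermates, so they are not independent of each other. With the 18S signal as a covariate Cacna1g differed by -0.63 and was not called (adjusted p = 0.581), and in that fit 0 of all probe sets were called in this comparison.

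**Figure D1:**
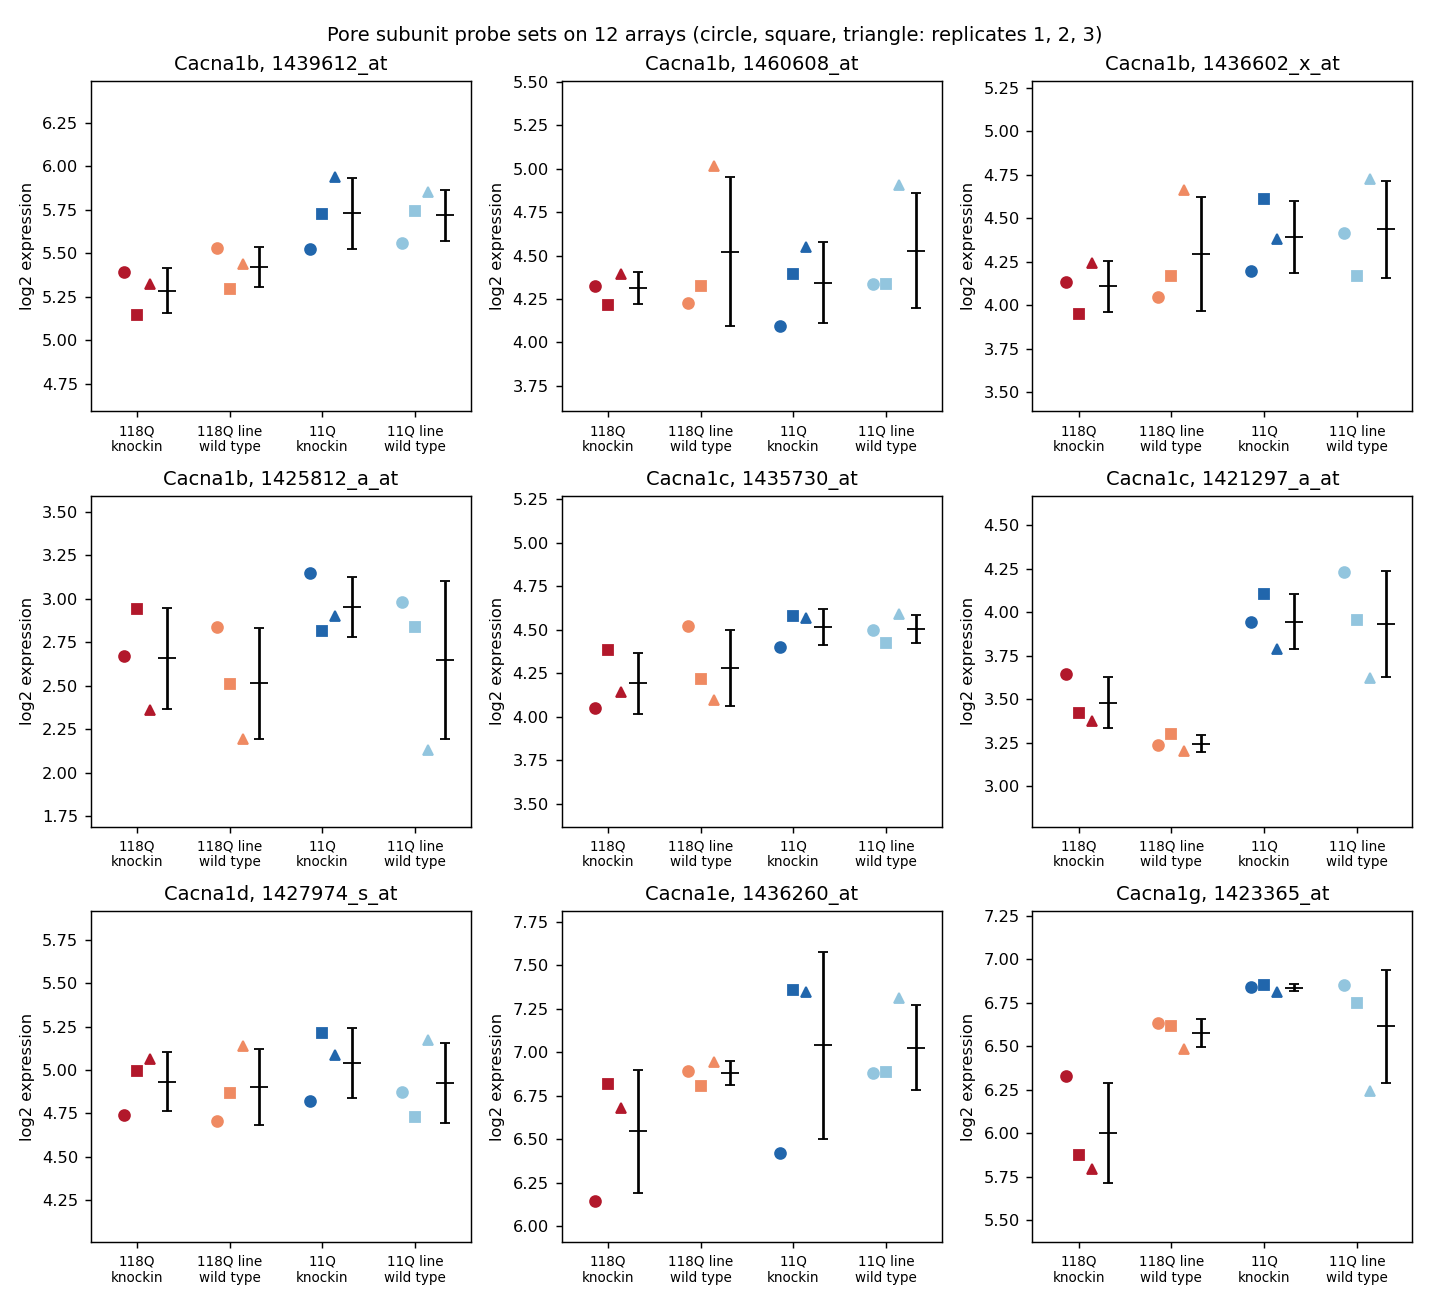
Log2 expression (vertical axes, each spanning the same number of log2 units) of the 9 member probe sets past the filter in the 4 groups; symbols are single arrays, and the dash and bar beside them are the mean and SD of 3 arrays. Cacna1g lies at 5.80 to 6.33 in 118Q knockins, below the 6.49 to 6.63 of their littermates, and the Cacna1c probe set 1421297_a_at lies at 3.20 to 3.65 in both groups of the 118Q line and at 3.62 to 4.23 in both groups of the 11Q line.

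Purkinje cell markers lay lower in the same arrays. Of 21 listed markers 16 were measured, and 15 (14 with arrays centred or quantile normalized) lay below 0 in the 118Q knockin against its littermates, with a median of -0.47. The median of all 12672 genes was 0.06, and 5071 of them lay below 0. Slc1a6, the glutamate transporter of Purkinje cells (-1.13, adjusted p = 0.0147), Dner, a Notch ligand (-1.04, adjusted p = 0.0369), and Car8, a partner of the intracellular calcium release channel (-0.65, adjusted p = 0.0462), fell, and 1.14% of all genes were called by their brightest probe set. With arrays centred on their median 2 of the list were called. Pcp2, a bright Purkinje gene, differed by 0.14 and did not pass; Car8 and Pcp2 are named after their values were seen. The list's summed level was 13.0 to 13.3 in 118Q knockins and 13.5 in their littermates, and its part in the Cacna1g value was not tested. In whole cerebellum, fewer cells of a type and less RNA per cell cannot be told apart.

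Cerebellar interneuron markers, which include Gad1 (-0.79, adjusted p = 0.113) and Slc32a1 (-0.74, adjusted p = 0.121) of GABA synthesis and loading, had a median of -0.46 with 10 of 11 below 0 and 0 called (6 lower at an unadjusted p below 0.05). In the same comparison 5071 of all 12672 genes lay below 0, and 793 were lower at an unadjusted p below 0.05. The summed level of the interneuron markers was 9.43 to 10.5 in 118Q knockins and 10.4 to 10.7 in littermates. Deep nuclear neuron markers were measured for 4 of 6 genes, with 2 of 4 below 0, 0 called (1 lower at an unadjusted p below 0.05) and a median of -0.21. Nefh and Nefm, neurofilament subunits, were the 2 below 0, with differences of -0.63 and -0.42 (adjusted p = 0.134 and 0.328). Meis2, a transcription factor, differed by 0.17 (adjusted p = 0.81), but its mean of 1.65 lay close to the filter at 1.58. The remaining measured gene, Slc17a6, did not lie below 0. Granule cell markers had a median of -0.03, with 6 of 11 below 0 and 0 called (0 at an unadjusted p below 0.05). Between the knockins, 118Q minus 11Q, 14 of 16 Purkinje, 10 of 11 interneuron and 11 of 11 granule cell markers lay below 0. Their medians were -0.48, -0.68 and -0.16, and 6, 5 and 0 were called lower. Deep nuclear markers had a median of 0.22 there, with 2 of 4 below 0 and 1 called higher. Of all 12672 genes 4747 lay below 0, 409 were called lower and 1118 higher.

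The other T-type gene with probe sets, Cacna1h, was dim. Its probe sets 1422710_a_at and 1427607_at averaged 1.42 and 0.70 over the 12 arrays, at percentiles 37.3 and 16.4 of all probe sets, below the filter. The brighter one read 1.96, 1.46 and 1.59 in 118Q knockins, against 1.44, 1.45 and 1.11 in their littermates, with the groups just apart. In a fit of all 45101 probe sets the difference was 0.33 ± 0.17 (adjusted p = 0.427) and the other probe set differed by 0.15 ± 0.12 (adjusted p = 0.69). In the 11Q line they differed by -0.07 ± 0.17 and 0.20 ± 0.12. That fit called 1.26% of all probe sets in the 118Q line and 0 in the 11Q line, where the smallest adjusted p of the reported fit was 0.138. No direction for Cacna1h is drawn from probe sets this dim.

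Cacna1c, the L-type pore gene of neurons and of vascular smooth muscle, had no probe set that passed in any comparison of the reported fit. Its largest difference was between the wild types of the lines. Its probe set 1421297_a_at read 3.65, 3.42 and 3.38 in 118Q knockins, against 3.24, 3.30 and 3.20 in their littermates. In the 11Q line it read 3.95, 4.11 and 3.79 in knockins, against 4.23, 3.95 and 3.62 in littermates. The 118Q knockin arrays lay just above their littermates, but the difference of 0.24 ± 0.15 did not pass (adjusted p = 0.444), and the 11Q knockin effect was 0.01 ± 0.15.

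Between wild types, with no knockin allele on either side, the same probe set differed by -0.69 ± 0.15 (118Q line minus 11Q line; interval -1.02 to -0.36), 1.61-fold lower, without overlap. Its unadjusted p of 0.000599 ranked 9 among 27060 probe sets, and its adjusted p was 1; limma called 0 probe sets in that comparison, where 3.55% had an unadjusted p below 0.05 (2.06% lower), and 2 of the 9 members did, both lower. Between knockins it differed by -0.47 ± 0.15 (adjusted p = 0.0602), also without overlap. Without wild type replicate 1 of the 11Q line, knockin replicate 1 of the 118Q line or wild type replicate 3 of the 11Q line this last comparison passed (adjusted p = 0.0431, 0.0435 and 0.0282). It also passed with the lowest 60% of probe sets removed (adjusted p = 0.0479), with array weights (0.000202) and without replicate 3 of both wild type groups (0.0291).

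The brighter Cacna1c probe set, 1435730_at, had 4.05, 4.39 and 4.14 in 118Q knockins, against 4.52, 4.22 and 4.10 in littermates, and 4.40, 4.58 and 4.57 in 11Q knockins, against 4.50, 4.42 and 4.59 in littermates. It differed by -0.09 ± 0.13 in the 118Q line, by 0.01 ± 0.13 in the 11Q line, by -0.23 ± 0.13 between wild types and by -0.32 ± 0.13 between knockins (adjusted p = 0.783, 0.994, 1 and 0.126). Both Cacna1c probe sets were therefore lower in the 118Q line in both between-line comparisons, by unequal amounts. Their values correlated at 0.51 over the 12 arrays and at -0.234 after the group means were removed, so they did not move together within groups. The mean of the 2 probe sets differed by -0.39 between knockins and passed (adjusted p = 0.0283). Mural cell markers, which cover vascular smooth muscle, had 7 of 7 genes below 0 in the 118Q knockin against its littermates, with a median of -0.27. Of all 12672 genes 5071 lay below 0 there, and 76 were called lower. Of the mural markers Acta2, smooth muscle actin, fell (-1.14, adjusted p = 0.0298), and Abcc9 differed by -1.13 (adjusted p = 0.0964). The summed level of these markers was 7.94 to 8.03 in 118Q knockins and 8.22 to 8.50 in littermates, and their part in the Cacna1c values was not tested. Between wild types, where the Cacna1c difference was largest, 2 of the 7 mural markers lay below 0, against 5963 of all 12672 genes. The median of the mural markers was 0.15, and their summed level was 8.22 to 8.50 in the 118Q line and 8.01 to 8.65 in the 11Q line.

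Cacna1d, the L-type pore gene whose channel opens at more negative voltages than that of Cacna1c, did not separate the groups by its brighter probe set. That probe set, 1427974_s_at, read 4.74, 5.00 and 5.06 in 118Q knockins, against 4.71, 4.87 and 5.14 in littermates, and 4.82, 5.21 and 5.09 in 11Q knockins, against 4.88, 4.73 and 5.17 in littermates. The differences were 0.03 ± 0.16 in the 118Q line (interval -0.32 to 0.38) and 0.11 ± 0.16 in the 11Q line (interval -0.23 to 0.46). All groups overlapped.

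The dim Cacna1d probe set, 1428051_a_at, lay below the filter with a mean of 1.44, so its values are given with no direction drawn for the gene. It read 0.99, 1.23 and 1.22 in 118Q knockins, against 1.41, 1.44 and 1.55 in littermates, and 1.47, 2.22 and 1.98 in 11Q knockins, against 1.11, 1.43 and 1.21 in littermates. In the fit of all 45101 probe sets it differed by -0.33 ± 0.17 in the 118Q line (adjusted p = 0.44) and by 0.64 ± 0.17 in the 11Q line (adjusted p = 0.976). The difference of these effects was -0.96 ± 0.23 (adjusted p = 0.207), where 0.0576% of all probe sets were called. Between knockins it differed by -0.74 ± 0.17 (adjusted p = 0.0164), where that fit called 7.67% of all probe sets, 3.71% lower. The brighter probe set of the gene differed by -0.11 ± 0.16 in the same comparison (adjusted p = 0.699).

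Cacna1b, the N-type pore gene whose channel shares transmitter release with the P/Q type, was measured by 4 probe sets that did not move together. The brightest, 1439612_at, read 5.39, 5.15 and 5.32 in 118Q knockins, against 5.53, 5.30 and 5.44 in littermates, a difference of -0.14 ± 0.13 (interval -0.43 to 0.15; adjusted p = 0.639). It read 5.53, 5.73 and 5.94 in 11Q knockins, against 5.56, 5.75 and 5.85 in littermates, a difference of 0.01 ± 0.13. The ranges overlapped within each line. All 6 arrays of the 118Q line lay at 5.145 to 5.528 and all 6 of the 11Q line at 5.526 to 5.937, so the lines just overlapped.

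Between knockins this probe set was 1.36-fold lower in the 118Q line (-0.44 ± 0.13, adjusted p = 0.046), the second of the 2 members called there. Wild types of the 118Q line were also lower than those of the 11Q line, by -0.30 ± 0.13 (unadjusted p = 0.0452, adjusted p = 1). The call between knockins was lost in 9 of the 12 fits that left out 1 array, with adjusted p up to 0.163. It was also lost without a filter (0.0546), in a fit of only both knockin groups (0.0687), with the mean of the gene's 4 probe sets (-0.26, 0.0869), with the trend on gene span removed (-0.35, 0.107) and with the 18S signal as a covariate (-0.0085, 0.995).

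The other 3 Cacna1b probe sets differed by -0.21 ± 0.21 (1460608_at), -0.18 ± 0.19 (1436602_x_at) and 0.14 ± 0.23 (1425812_a_at) in the 118Q knockin and by -0.18, -0.04 and 0.30 in the 11Q knockin, with adjusted p of 0.648 or more. Probe set 1460608_at read 4.33, 4.21 and 4.39 in 118Q knockins, against 4.23, 4.33 and 5.01 in littermates, and 4.09, 4.39 and 4.55 in 11Q knockins, against 4.33, 4.34 and 4.91 in littermates. Probe set 1425812_a_at read 2.67, 2.94 and 2.36 in 118Q knockins, against 2.84, 2.51 and 2.20 in littermates, and 3.15, 2.81 and 2.90 in 11Q knockins, against 2.98, 2.84 and 2.13 in littermates. Wild type replicate 3 of each line was thus highest in its group for the first and lowest for the second.

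Over the 12 arrays 1460608_at correlated with 1436602_x_at at 0.81 and with 1425812_a_at at -0.80, and after the group means were removed these values were 0.89 and -0.86. These are descriptions over arrays that also differ in RNA measures, and the annotation used here does not say which part of the transcript each probe set reads. With both wild type groups lacking replicate 3, the 118Q differences of 1460608_at, 1436602_x_at and 1425812_a_at were 0.034, 0.00087 and -0.014.

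**Figure D2:**
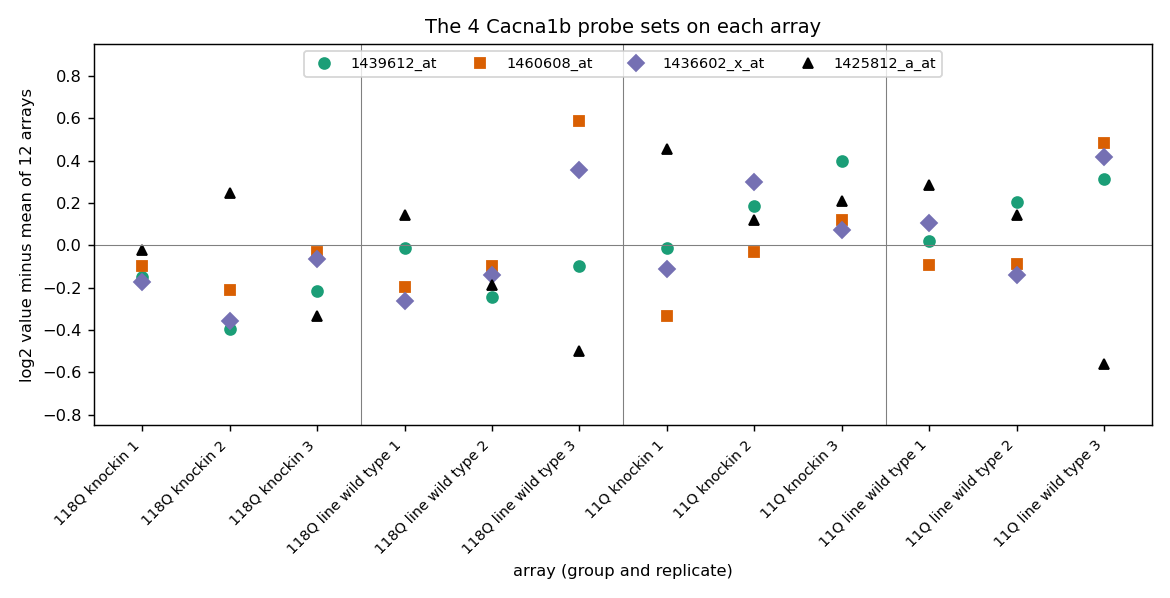
Deviation of each of the 4 Cacna1b probe sets from its own mean over the 12 arrays (vertical axis, log2 units) on every array (horizontal axis, by group and replicate). On wild type replicate 3 of both lines 1460608_at and 1436602_x_at lie highest and 1425812_a_at lowest, and the 2 probe sets 1460608_at and 1425812_a_at correlate at -0.80 over the arrays.

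Cacna1e, the R-type pore gene, had the largest standard error of the members tested and passed in no comparison of the reported fit. Its probe set 1436260_at read 6.14, 6.82 and 6.68 in 118Q knockins, against 6.89, 6.81 and 6.94 in their littermates. It read 6.42, 7.36 and 7.35 in 11Q knockins, against 6.88, 6.89 and 7.31 in littermates. Knockin replicate 1 was the lowest array of its group in both lines, and the groups overlapped in both. The difference was -0.34 ± 0.24 in the 118Q line (interval -0.86 to 0.19; adjusted p = 0.504) and 0.01 ± 0.24 in the 11Q line (interval -0.51 to 0.54; adjusted p = 0.996). Between knockins it was -0.50 ± 0.24 (adjusted p = 0.192), and -0.81 without knockin replicate 1 of the 11Q line (adjusted p = 0.0283). The other Cacna1e probe set, 1421692_at, averaged 0.65 and lay below the filter. It read 0.54 to 0.80 in 118Q knockins and 0.38 to 0.65 in littermates. In the 11Q line it read 0.45 to 0.70 in knockins and 0.73 to 0.81 in littermates, the other way and without overlap. No direction for Cacna1e is drawn from a probe set this dim.

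**Figure D3:**
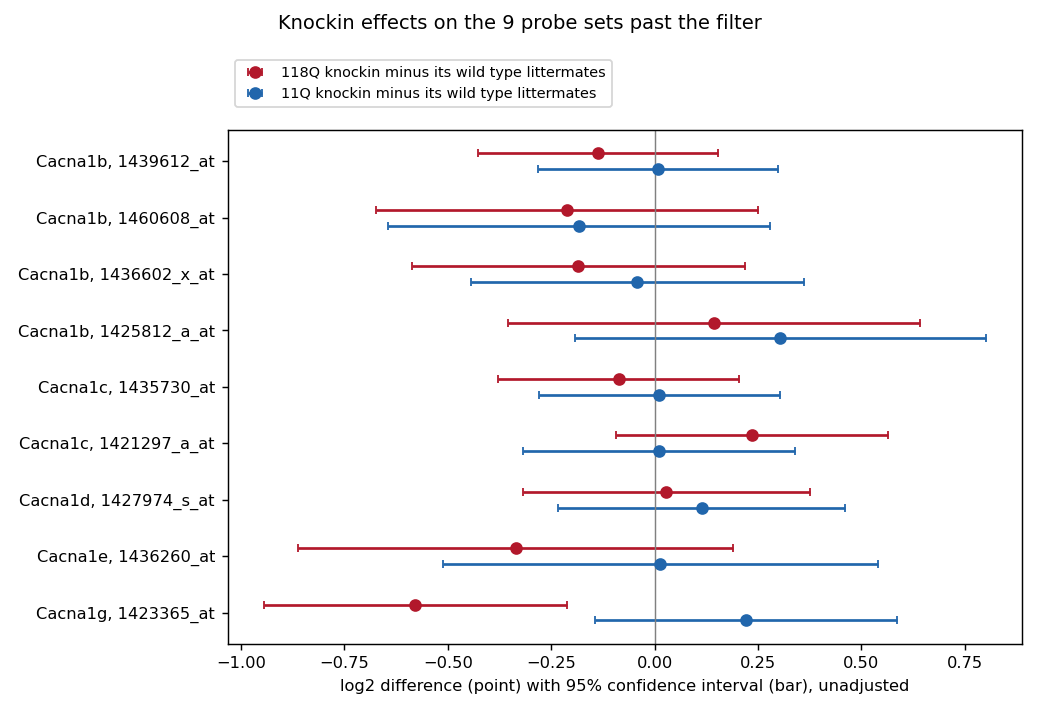
Log2 difference between knockin and wild type littermates in the 118Q line (red) and the 11Q line (blue) for the 9 member probe sets past the filter (rows), with 95% confidence intervals from the limma fit that are not adjusted for the number of tests. The interval of Cacna1g in the 118Q line, -0.95 to -0.21, lies below 0, and the intervals of the other 8 probe sets in that line and of all 9 in the 11Q line include 0.

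By count, 6 of the 9 probe sets (7 with quantile normalization) lay below 0 in the 118Q knockin against its littermates, with a median of -0.14, where 44.4% of all probe sets lay below 0 and their median was 0.03. In the 11Q knockin 2 of 9 lay below 0, with a median of 0.01 (56.8% and -0.03 for all). Groups that did not overlap were found for 2 of 9 members in the 118Q line, Cacna1g lower and Cacna1c 1421297_a_at higher, against 21.6% of all probe sets (9.21% lower and 12.4% higher). In the 11Q line they were found for 0 of 9, against 9.66%. There limma called 0 of all 27060 probe sets, and 0 members had an unadjusted p below 0.05, against 3.53% of all probe sets.

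All 9 probe sets lay below 0 in both between-line comparisons, except that 7 of 9 did between wild types with quantile normalization. The medians were -0.32 for knockins (0.05 over all probe sets) and -0.14 for wild types (-0.00 over all), and 43.5% and 51.1% of all probe sets lay below 0. In the comparison of knockins 4 of the 9 did not overlap, all lower, where 15.2% of all probe sets were lower without overlap. In that of wild types 2 of the 9 did not overlap, both lower, where 3.59% were lower without overlap. The probe sets of 1 gene share a transcript, and 4 of the 9 belong to Cacna1b.

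The member genes are long. On the GRCm38.p6 assembly Cacna1c spans 610 kb (chromosome 6, 118587240 to 119197384), Cacna1e 494 kb (chromosome 1, 154390806 to 154884785), Cacna1d 451 kb (chromosome 14, 30039941 to 30491156) and Cacna1b 159 kb (chromosome 2, 24603860 to 24763200). Cacna1g spans 66 kb (chromosome 11, 94408391 to 94474400) and Cacna1h 62 kb (chromosome 17, 25374285 to 25436334). The first 3 lie above percentile 98 of the spans of the genes tested, Cacna1b at 92.2 and Cacna1g at 77.5.

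Over all genes, the difference between the 118Q knockin and its littermates was lower at longer spans: its median was 0.15 in the fifth of genes with the shortest spans and -0.078 in the fifth with the longest, above 74.6 kb. With that trend removed within each array, Cacna1g differed by -0.56 from its littermates (adjusted p = 0.199) and by -0.83 from the 11Q knockin (adjusted p = 0.022), and in the 118Q line Cacna1c 1435730_at differed by 0.078 and 1421297_a_at by 0.40 (adjusted p = 0.282). With the 18S signal as a covariate Cacna1g differed by -0.42 from its littermates (adjusted p = 0.865). The 18S signal of every 118Q knockin array lay below that of every other array, so this signal and the 118Q knockin allele cannot be told apart.

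**Figure D4:**
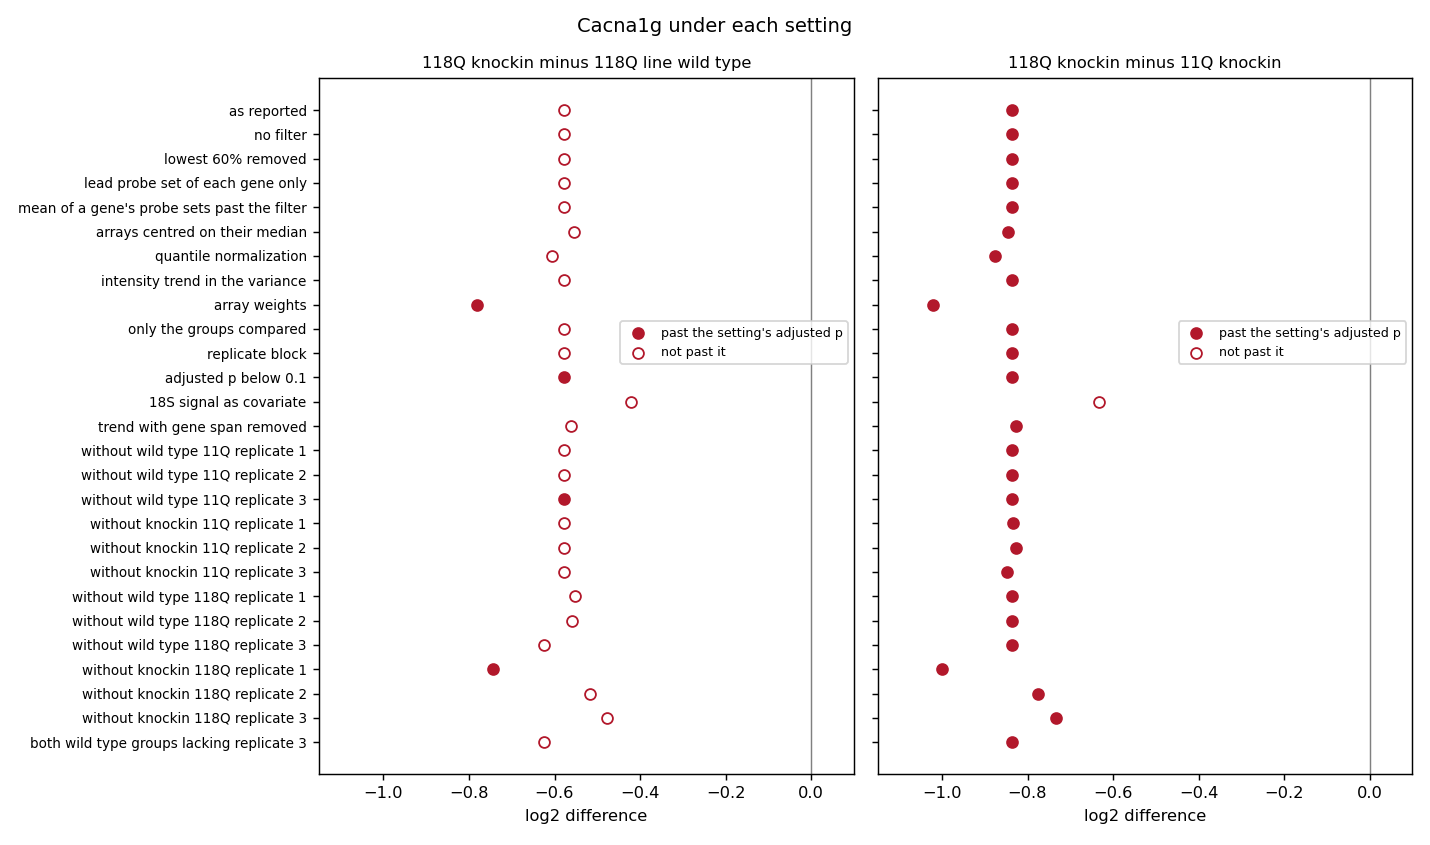
Log2 difference of Cacna1g (horizontal axes) between the 118Q knockin and its littermates (left) and between the 118Q and 11Q knockins (right) under each setting of the processing (rows); filled points passed the adjusted p of their setting, and open points did not. All values lie below 0, from -0.78 to -0.42 on the left and from -1.02 to -0.63 on the right.

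Cacna1a, the targeted gene, differed by -0.34 ± 0.16 in its brightest probe set in the 118Q knockin (adjusted p = 0.288). Of the other pore subunits, Cacna1f, the L-type gene of the retina, differed by 0.04, and Cacna1s, the L-type gene of skeletal muscle, averaged 0.78 and lay below the filter. Of 16 auxiliary subunit genes 12 were measured. Of these 1 fell, 0 rose, and 8 lay below 0, with a median of -0.09. Of all 12672 genes 76 were called lower, 68 were called higher and 5071 lay below 0. Cacna2d2, an alpha2delta subunit of Purkinje cells, fell by 0.75 ± 0.15 on the log2 scale (adjusted p = 0.0215), with all 3 knockin arrays below their littermates. Cacnb2, a beta subunit, differed by -0.42 (adjusted p = 0.183).

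Partners and calcium sensors of the channels, such as release-site scaffolds, calcineurin and STAC adaptors, were measured for 18 of 23 genes, with 0 called (3 lower and 0 higher at an unadjusted p below 0.05) and a median of -0.04. Of all 12672 genes 793 were lower at that unadjusted p. Ppp3ca, a catalytic subunit of calcineurin, differed by -0.29 (adjusted p = 0.212) and Stac, an adaptor of L-type channels, by -0.47 (adjusted p = 0.227). Of 5 calcium-activated potassium channel genes 4 were measured, with 2 of 4 below 0 and 0 called (2 higher at an unadjusted p below 0.05, against 1372 of all 12672 genes). Kcnma1, the BK pore gene, differed by -0.48 (adjusted p = 0.403). Kcnn2, the SK channel of Purkinje cells, differed by 0.35 (adjusted p = 0.201) and Kcnmb4, a BK channel subunit, by 0.27 (adjusted p = 0.211).

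Among lists for other cells, microglia markers had a median of 0.63 in the 118Q knockin against its littermates, with 13 of 13 above 0, and Trem2 (0.77, adjusted p = 0.0131) and its signalling partner Tyrobp (1.03, adjusted p = 0.0175) rose. Endothelial markers had a median of -0.46 with 8 of 8 below 0, and Flt1 (-0.95, adjusted p = 0.0141) and Abcb1a (-0.96, adjusted p = 0.0427) fell. Of all 12672 genes 5071 lay below 0, 68 were called higher and 76 were called lower. The summed level was 8.65 to 9.11 in 118Q knockins and 8.31 to 8.59 in littermates for microglia, and 7.33 to 7.87 in 118Q knockins and 7.84 to 8.12 in littermates for endothelium. The other 6 marker lists had medians of -0.26 to 0.17 and 0 called genes. The part of these lists in the values of the pore subunits was not tested.

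The genes whose values over the 12 arrays were most like those of each member were found among the brightest probe sets of 12671 other genes, clone names passed over. For Cacna1g they were Acly, which makes cytosolic acetyl-CoA (Pearson r = 0.969), Kit, a receptor tyrosine kinase and marker of molecular layer interneurons (0.964), and Clstn3, a synaptic adhesion protein (0.96), where the median gene had -0.172 and the 95th percentile was 0.697. For Cacna1e they were Prex1, a Rac exchange factor (0.938), Dclk1, a microtubule-binding kinase (0.918), and Col12a1, a collagen (0.9). For Cacna1c they were Cep97, a centrosomal protein (0.943), Lamc1, a laminin chain (0.899), and Ubfd1 (0.868). For Cacna1b they were Adamts18 (0.917), Hivep3 (0.903) and Ncoa6 (0.901), and for Cacna1d Synpo2 (0.88), Wnt5a, a secreted signal (0.873), and Rhobtb3 (0.857). All of these come from the same arrays, which share their group structure and RNA measures.

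Among the members themselves, Cacna1d 1427974_s_at correlated with Cacna1e at 0.667 and with Cacna1b 1436602_x_at at 0.744, and at 0.769 and 0.854 after the group means were removed. Cacna1g correlated with Cacna1d at -0.217 and with Cacna1e at 0.239, and after the group means were removed at -0.718 and -0.59. With Cacna1c 1421297_a_at it correlated at 0.579 over the arrays and 0.854 after the group means were removed, and with Cacna1b 1425812_a_at at 0.473 and 0.648. These are descriptions over 12 arrays.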

How the data were processed

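The authors deposited 1 table of log2 expression values, 1 row for each of 45101 probe sets and 1 column for each of 12 arrays; RMA made them, per the submitters' processing notes (version not given in the sources used here). Array medians lay between 2.21 and 2.38, and no further normalization was applied. Per the labels' protocols RNA was column-purified and DNase-treated, had an integrity number above 5, and was labelled with biotin in a one-cycle kit. Precision is set by the number of arrays, and a knockin effect had a median standard error of 0.154 log2 units.

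Probe sets were named from the array annotation, with symbols updated through gene IDs to an annotation of GRCm38.p6: 34958 had 1 symbol, 932 several and 9211 none listed. Where a list of genes is described, each gene is its brightest probe set past the filter. The 27060 probe sets past the filter were fitted with limma 3.58.1 in R 4.3.3, with 1 mean for each group and all 12 arrays in 1 model (8 residual and 4.58 prior degrees of freedom), with two-sided p-values and Benjamini-Hochberg adjustment over all of them; a probe set was called at an adjusted p below 0.05. Probe sets, not genes, were tested because the rule for the members names probe sets. Named by rule were all members, Cacna1a, the 2 genes of a list with the lowest p-values between 118Q knockin and littermates, and the 3 genes most like each member. The other named genes, among them Meis2, Slc17a6, Kcnma1 and Cacna1s, fall outside this rule and were chosen after their values were seen. The members and lists were chosen with earlier results of these data known. Known changes added to simulated data served to test these steps; the share to be recovered was lowered once, after the difference of effects fell short of it while its estimates were unbiased.

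Alternatives were other filters, 1 value per gene, median centring, quantile normalization, a variance trend, array weights, only the groups compared, a replicate block, a looser threshold, the 18S signal as covariate, removal of a trend with gene span, and leaving out arrays.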

Additional observations from a re-analysis of the deposited data

How the results depend on the processing

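The 36 fitted differences followed here gave 906 values under the alternatives; 812 kept their sign and side of the threshold, 62 changed sign, 15 lost the call and 17 gained it. Many of the 812 could not change sign. A filter, a variance trend or a looser threshold leaves the difference itself as it was. Leaving out an array from outside the groups compared does so too. Cacna1g changed sign only between wild types, where its difference was near 0: 0.037 with the 18S covariate and -0.22 to 0.081 over the fits that left out 1 array. The causes were not tested. In the difference of effects and between lines, only the brightest probe set of each gene and both of Cacna1c were followed, a choice made after the values were seen. Same-numbered arrays of a line did not deviate together (correlations of -0.081, -0.088 and 0.015 in the 118Q line and 0.206, -0.158 and 0.0604 in the 11Q line), so the replicate numbers were not taken as pairs. With the replicate block 470 probe sets were called in the 118Q effect, 9 in the difference of effects and 3780 between knockins, and Cacna1c 1421297_a_at passed between knockins (adjusted p = 0.0403). It changed no other call of a member.

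All probe sets called in the 118Q effect numbered 608, against 24 with the brightest probe set of each gene only, 18 with probe sets averaged by gene, 5973 with array weights, 113 with only the groups compared, 1314 at an adjusted p below 0.1, 0 with the 18S covariate, 15 with the span trend removed, 178 without replicate 3 of both wild type groups and 144 to 1449 without 1 array. The difference of effects had 26, against 0, 0, 1440 and 69 with the brightest probe set, the mean, array weights and an adjusted p below 0.1, 42 with quantile normalization, 0 with the 18S covariate, 0 with the span trend removed, 1 without both replicates 3 and 0 to 156 without 1 array. Between knockins 3684 became 1732 with the brightest probe set, 1678 with the mean, 13434 with array weights, 5942 at an adjusted p below 0.1, 0 with the 18S covariate, 1160 with the span trend removed and 1590 to 4525 without 1 array. The 11Q effect had 0, against 7 with only the groups compared and 0 to 3 without 1 array, and the wild types 0, against 1 with the 18S covariate and 0 to 1 without 1 array.

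Member probe sets called in the 118Q effect numbered 0, against 1 (Cacna1g) with array weights (-0.78, adjusted p = 0.000836), at an adjusted p below 0.1 and in 2 of the fits without 1 array (0 to 1 in all). The difference of effects had 0, and 1 (Cacna1g, -0.87) with array weights. Between knockins 2 became 7 with array weights, 1 with only the groups compared, 0 with the 18S covariate, 1 with the span trend removed and 1 to 3 without 1 array. It became 3 with the lowest 60% removed, with the replicate block, at an adjusted p below 0.1 and without replicate 3 of both wild type groups.

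None of the differences that changed sign was itself called in the reported fit. Cacna1g and Cacna1b 1439612_at, the members called between knockins, changed sign only in other comparisons. With the 18S covariate the 118Q differences of Cacna1b 1439612_at, 1460608_at, 1436602_x_at and 1425812_a_at were 0.20, 0.53, 0.28 and -0.35, the 11Q differences of 1436602_x_at and Cacna1c 1435730_at were 0.041 and -0.036, the differences of effects of Cacna1b 1439612_at and Cacna1d were 0.13 and 0.0097, and Cacna1d was 0.042 between knockins and 0.032 between wild types. With array weights 1436602_x_at and 1425812_a_at were 0.010 and -0.13 in the 118Q line, 1436602_x_at and Cacna1c 1421297_a_at 0.15 and -0.059 in the 11Q line, and Cacna1d 0.017 between wild types. Without replicate 3 of both wild type groups 1460608_at, 1436602_x_at and 1425812_a_at were 0.034, 0.00087 and -0.014 in the 118Q line, and 1460608_at, 1436602_x_at and Cacna1c 1421297_a_at 0.0091, 0.10 and -0.15 in the 11Q line. The mean of both Cacna1c probe sets was 0.074 in the 118Q line and 0.063 in the difference of effects. With the span trend removed Cacna1c 1435730_at was 0.078 and 0.049 in these, and Cacna1d 0.042 in the difference of effects, 0.074 between knockins and 0.032 between wild types. Quantile normalization gave Cacna1d -0.0020 in the 118Q line and 0.0019 between wild types.

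Over the fits without 1 array the 118Q differences ran from -0.36 to 0.034 (1460608_at), -0.31 to 0.00087 (1436602_x_at), -0.014 to 0.31 (1425812_a_at), -0.18 to 0.035 (Cacna1c 1435730_at) and -0.069 to 0.15 (Cacna1d). The 11Q differences ran from -0.094 to 0.11 (1439612_at), -0.28 to 0.0091 (1460608_at), -0.18 to 0.10 (1436602_x_at), -0.028 to 0.071 (1435730_at), -0.15 to 0.16 (1421297_a_at) and -0.14 to 0.32 (Cacna1e). The differences of effects ran from -0.20 to 0.023 (1435730_at) and -0.21 to 0.033 (Cacna1d), and Cacna1d from -0.14 to 0.10 between wild types.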
